A study of Mus musculus with 7 samples.

Results

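The genes described here are 6 members of the neurotrophin system measured in mouse hippocampus: the ligands Bdnf and Ntf3 and the receptors Ntrk2, Ntrk3, Ngfr and Sort1. They were taken by symbol from a table of 21965 genes, each symbol matched 1 row, and 6 of 6 passed the low-count filter that left 14417 genes for testing. NIHHL libraries (n = 4) came from mice exposed to noise of 110 dB for 2 h, a model of noise-induced hidden hearing loss in which hearing is impaired without a lasting rise of the hearing threshold. Control libraries (n = 3) came from blank control mice. Per the series' design text, hippocampus was taken 1 month after induction and the question was which genes go with the memory impairment of this model. The labels name no strain, sex, age or number of animals per library, and p-values therefore measure only how far these libraries spread, which may be technical.

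Neurotrophins are secreted growth factors made as longer precursors. The mature factors bind Trk receptor tyrosine kinases, which signal through Ras-ERK, PI3K-Akt and phospholipase C gamma to support neuronal survival, dendrite growth and long-term potentiation. The uncleaved precursors bind the p75 receptor together with sortilin, a route known for the opposite effects, pruning and cell death. In rodent hippocampus Bdnf is switched on by neuronal activity, is stored in mossy fibre terminals and is needed for the late phase of potentiation, while Ntf3 is made mainly by dentate granule cells.

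Library totals ran from 14871376 to 24515146 counts. Levels are given as CPM, counts scaled to a common library size with TMM factors. Markers of dentate granule cells, CA1 cells and CA2 and CA3 cells summed to 739 to 1036, 519 to 581 and 532 to 635 CPM in NIHHL and to 739.6 to 967, 518 to 581 and 567 to 692 CPM in Control, so markers of each hippocampal field were present in every library. The markers with the highest mean in these lists were Dgkh, Mpped1 and Nrip3. Libraries differed in a trend with gene length, the Spearman correlation across 8382 genes of exon length with how far a gene lay from its mean over the libraries. It ran from -0.33 to 0.52 in NIHHL, highest in replicate 4, and from -0.58 in replicate 2 to 0.45 in replicate 1 in Control. Genes are not independent replicates, and this correlation is a description. Markers of ependymal cells, which line the ventricles, summed to 55.9 to 71.7 CPM in NIHHL and 35.5 to 49.1 CPM in Control without overlap, with 6 of 6 at a higher mean in NIHHL and Foxj1 the most abundant. Markers of oligodendrocytes, led by Mbp, summed to 8040.1 to 9501 CPM in NIHHL and 7005 to 8792 CPM in Control, with 9 of 10 at a higher mean in NIHHL. The mean was lower in NIHHL for 4 of 6 CA1 and 7 of 9 CA2 and CA3 markers. It was also lower for 4 of 5 further neuronal markers and 5 of 6 endothelial markers, led by Slco1a4. Camk2a, the most abundant of these 5 neuronal markers, was the 1 at a higher mean. None of these markers was called or at 0 in any library. Unadjusted p by edgeR was under 0.05 for 5 of 6 ependymal and 4 of 10 oligodendrocyte markers. It was so for 1 of these 5 neuronal and 1 of 10 astrocyte markers, and for 3.63% of all genes tested. The part of these markers in the levels of the 6 genes was not tested.

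Bdnf (ENSMUSG00000048482) lies on chromosome 2, positions 109674700 to 109727007 on the plus strand in the GENCODE M21 annotation of GRCm38, with 11 annotated transcripts. Its start sites are spread over separate 5' exons that are each joined to the shared coding exon, so the gene-level count sums transcripts from all of them and cannot tell them apart. RefSeq windows of 300 bases (GRCm38.p6, 250 bases before to 50 after a start) were at hand for 4 of the 6 members, namely Bdnf, Ntf3, Ngfr and Ntrk2, and 7 of them belong to Bdnf. Below are the most upstream window, at exon I, and the window at exon IV, the best studied activity-dependent promoter of the gene. Capitals mark TGACG on either strand, the core of the cAMP response element through which Creb1 acts.
Bdnf start at exon I, chr2:109674450-109674749, plus strand: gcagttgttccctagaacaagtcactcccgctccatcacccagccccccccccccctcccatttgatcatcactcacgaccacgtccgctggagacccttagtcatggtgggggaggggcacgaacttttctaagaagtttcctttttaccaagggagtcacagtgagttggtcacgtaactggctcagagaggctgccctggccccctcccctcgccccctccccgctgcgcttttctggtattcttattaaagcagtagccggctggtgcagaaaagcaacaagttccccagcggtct
Bdnf start at exon IV, chr2:109692186-109692485, plus strand: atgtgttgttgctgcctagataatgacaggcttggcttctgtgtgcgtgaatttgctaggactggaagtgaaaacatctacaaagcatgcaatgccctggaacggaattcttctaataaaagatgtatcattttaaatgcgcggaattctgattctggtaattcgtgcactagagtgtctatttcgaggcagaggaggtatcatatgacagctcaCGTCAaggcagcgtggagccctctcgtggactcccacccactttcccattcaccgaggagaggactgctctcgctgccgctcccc

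TGACG was found in 1 of the 7 Bdnf windows, that of exon IV. It lies there on the opposite strand, and its most upstream base is 35 bases before the start. It was in none of the 2 windows of Ntf3, the 1 of Ngfr and the 1 of Ntrk2, and in 20.8% of all 32851 windows of the same length. The full element TGACGTCA was in 0 of the 7 Bdnf windows and in 1.79% of all windows. These are matches of letters, and the counts below carry no information on which start site was used.

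Bdnf stood at 23.6, 27.6, 24.2 and 31.4 CPM in NIHHL replicates 1 to 4, against 28.99, 30.2 and 30.2 CPM in Control replicates 1 to 3. Replicates 1, 2 and 3 of NIHHL lay below every Control library and replicate 4 lay above every Control library, so the groups overlapped. At least 3 NIHHL libraries lay below every Control library for 9.09% of all genes tested. The deposited counts behind these values ran from 439 to 532 in NIHHL and from 430 to 719 in Control.

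Bdnf averaged 26.7 ± 3.59 CPM in NIHHL and 29.8 ± 0.682 CPM in Control (SD, n = 4 and 3). Its log2 fold change, NIHHL minus Control, was -0.16 (SE 0.10), with an adjusted p of 0.996 by edgeR's quasi-likelihood test with Benjamini-Hochberg adjustment over all genes. The 95% interval of the fold ran from 0.763 to 1.05. Without NIHHL replicate 4 the log2 fold change was -0.25, and it was -0.11 without NIHHL replicate 1. It was -0.18 after a correction for length and -0.24 without both Control replicate 2 and NIHHL replicate 4. Bdnf shares 896 exon bases with Gm45346, an antisense gene that was not analysed here, and without strand information reads in that stretch cannot be assigned.

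Ntf3, which encodes neurotrophin-3 (ENSMUSG00000049107, chromosome 6, 126101412 to 126166910, minus strand), was at 4.23, 8.39, 6.99 and 7.25 CPM in NIHHL replicates 1 to 4 and at 6.14, 7.05 and 6.79 CPM in Control replicates 1 to 3. NIHHL held both the lowest and the highest library, and Control lay between them. It averaged 6.72 ± 1.76 CPM in NIHHL and 6.66 ± 0.471 CPM in Control (SD), a log2 fold change of 0.0025 (SE 0.20, fold interval 0.735 to 1.37). The low NIHHL replicate 1 also had the lowest summed level of 8 dentate granule markers, 739 CPM, against 839 to 1036 CPM in the other NIHHL libraries. In Control, where Ntf3 lay between 6.14 and 7.05 CPM, replicate 1 had the lowest Ntf3 and the highest dentate sum, 967 CPM. Dgkh is the most abundant of these markers. All 8 had a higher mean in NIHHL, with 0 called, and none was at 0 in any library; their part in the level of Ntf3 was not tested. In bulk tissue, fewer cells of a type and less RNA per cell cannot be told apart.

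**Figure D1:**
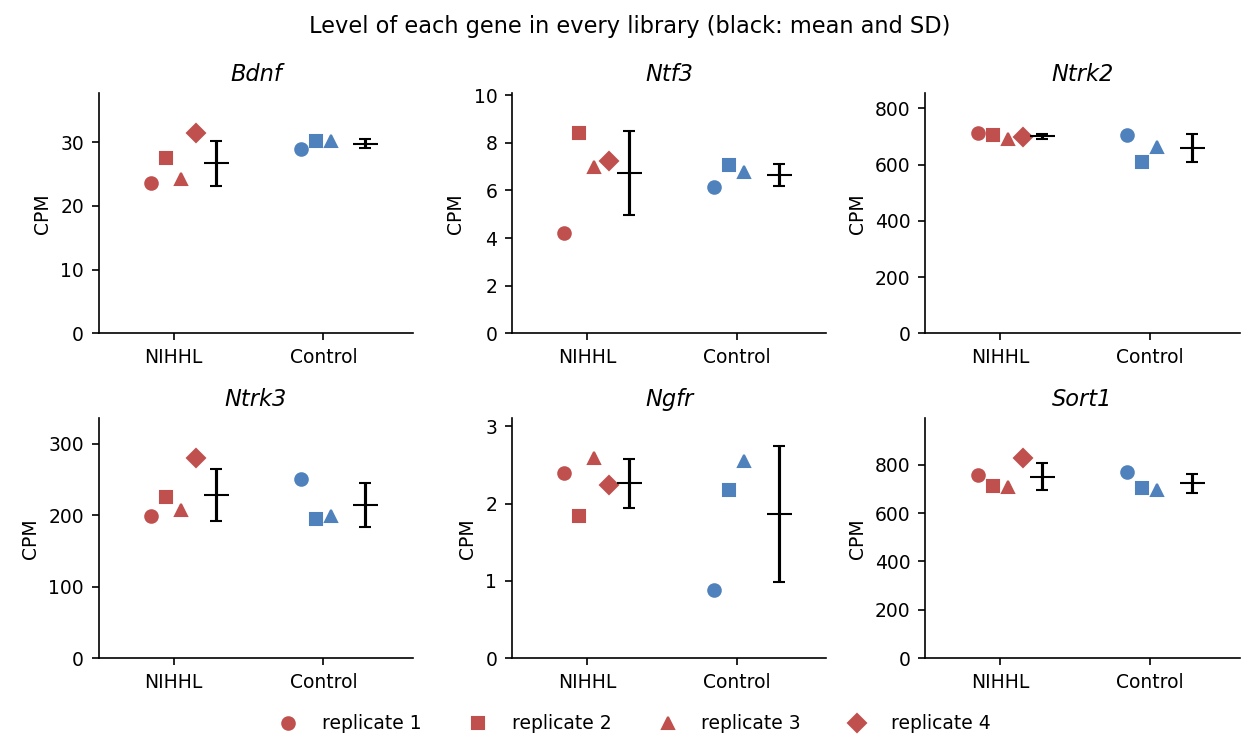
CPM of each of the 6 genes (vertical axes, from 0) in 4 NIHHL and 3 Control libraries, with 1 symbol per replicate number and the group mean and SD in black. The groups overlap in every panel; Bdnf lies between 23.6 and 27.6 CPM in 3 NIHHL libraries and at 31.4 CPM in the fourth.

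Ntrk2 encodes TrkB, the receptor for mature Bdnf (ENSMUSG00000055254, chromosome 13, 58806569 to 59133970, plus strand, 10 annotated transcripts). Its count sums the full-length kinase form of neurons and the truncated form that astrocytes make, which a gene-level table cannot separate. Ntrk2 was at 710.4, 706, 689 and 699 CPM in NIHHL replicates 1 to 4 and at 705, 608 and 662 CPM in Control replicates 1 to 3. The NIHHL libraries lay close together, within the upper part of the Control range or just above it, and 2 of 4 were above every Control library.

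Ntrk2 averaged 701 ± 9.17 CPM in NIHHL and 658 ± 48.5 CPM in Control (SD), with a log2 fold change of 0.09 (SE 0.07) and an adjusted p of 0.996 by edgeR. The fold interval was 0.963 to 1.18, the narrowest of the 6 genes together with that of Sort1. The low Control replicate 2 had the most negative length trend, and after a correction for length the log2 fold change was 0.05. It was 0.04 without Control replicate 2 and 0.14 without Control replicate 1. Control replicate 2 also had the lowest sum of 10 astrocyte markers, 5061 CPM, of which the most abundant, the glutamate transporter Slc1a2, gave 2407 CPM. NIHHL replicate 1 had the highest Ntrk2 of all libraries and the lowest astrocyte sum of its group, 5682 CPM. The sums ran from 5682 to 6221 CPM in NIHHL and from 5061 to 6281 CPM in Control, with 10 of 10 astrocyte markers at a higher mean in NIHHL, 0 called and none at 0; their part in the level of Ntrk2 was not tested.

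Ntrk3 encodes TrkC, the receptor for neurotrophin-3 (ENSMUSG00000059146, chromosome 7, 78175959 to 78738012, minus strand, 20 annotated transcripts). It was at 198, 225, 208 and 279.6 CPM in NIHHL replicates 1 to 4 and at 250.3, 195 and 199 CPM in Control replicates 1 to 3. The highest library of each group, NIHHL replicate 4 and Control replicate 1, was also the one with the most positive length trend, and Ntrk3 has the longest exon union of the 6 genes, 30.17 kb. NIHHL replicate 3, with a trend of -0.33, had more Ntrk3 than NIHHL replicate 1, with a trend of -0.17. The part of the length trend in the level of Ntrk3 was not tested. The log2 fold change was 0.09 (SE 0.13, fold interval 0.871 to 1.29) at means of 228 ± 36.3 CPM in NIHHL and 215 ± 30.9 CPM in Control (SD). It was 0.03 after the length correction and turned to -0.026 without NIHHL replicate 4. It was larger, 0.21, without Control replicate 1 and 0.17 with a choroid plexus score as covariate. The deposited counts of Ntrk3 carried decimals in all 7 libraries, unlike those of the other 5 genes, as estimated counts do when reads are divided between features.

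Sort1 encodes sortilin, the VPS10P-domain partner of p75 for precursors and a sorting receptor for Bdnf (ENSMUSG00000068747, chromosome 3, 108284082 to 108361511, plus strand). It was at 756, 713, 708 and 827 CPM in NIHHL replicates 1 to 4 and at 768, 706 and 694 CPM in Control replicates 1 to 3. As for Ntrk3, NIHHL replicate 4 and Control replicate 1 were the highest of their groups. The means were 751 ± 54.9 CPM in NIHHL and 722 ± 39.5 CPM in Control (SD), and the log2 fold change was 0.06 (SE 0.07, fold interval 0.929 to 1.16). It was 0.03 after the length correction. Sort1 shares 338 exon bases with Gm12523, an antisense gene that was not analysed here.

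Ngfr encodes the p75 receptor (ENSMUSG00000000120, chromosome 11, 95568818 to 95587735, minus strand), a member of the tumour necrosis factor receptor family. In the forebrain it is best known from cholinergic neurons of the septum, whose axons reach the hippocampus but whose cell bodies do not lie in it. NIHHL replicates 1 to 4 held 52, 32, 47 and 38 Ngfr counts and Control replicates 1 to 3 held 13, 52 and 54. In CPM these were 2.39, 1.84, 2.59 and 2.24 in NIHHL and 0.876, 2.18 and 2.55 in Control. Control replicate 1 stood below the other 6 libraries. Its 95% exact Poisson interval, 0.467 to 1.50 CPM, covers counting error only and did not reach the value of any other library. It did overlap the interval of NIHHL replicate 2, 1.26 to 2.60 CPM.

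Ngfr averaged 2.27 ± 0.318 CPM in NIHHL and 1.87 ± 0.878 CPM in Control (SD), and the log2 fold change was 0.24 (SE 0.31, fold interval 0.740 to 1.90). Its direction rested on 1 library: the log2 fold change was -0.058 without Control replicate 1 and 0.51 without Control replicate 3. Control replicate 1 also had the lowest summed level of 12 choroid plexus markers, 393 CPM, and of 8 meningeal fibroblast markers, 133 CPM. The choroid plexus sum ran from 1026 to 11996 CPM in NIHHL and from 393 to 9213 CPM in Control, the meningeal sum from 164 to 377 CPM in NIHHL and from 133 to 246 CPM in Control. All 12 choroid plexus markers and 7 of 8 meningeal markers had a higher mean in NIHHL, 0 were called and none was at 0 in any library. The most abundant marker of choroid plexus was Ttr, a thyroid hormone carrier, and that of meningeal fibroblasts Igf2, a growth factor. Igf2 alone gave 47.7 of the 133 CPM of meningeal markers in Control replicate 1. It gave 154 of 246 CPM in Control replicate 2 and 253 of 377 CPM in NIHHL replicate 1. With the choroid plexus score as a covariate the log2 fold change of Ngfr was 0.04. Ngfr was at 2.39 CPM in NIHHL replicate 1, with 11996 CPM of choroid plexus markers. It was at 2.55 CPM in Control replicate 3, with 2332 CPM of these markers. The part of choroid plexus and meningeal markers in the level of Ngfr was not tested. Of the cholinergic markers, Chat and Slc18a3 did not pass the low-count filter, and these with Slc5a7, the choline transporter, summed to 0.767 to 1.43 CPM in NIHHL and to 0.607 to 1.55 CPM in Control.

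**Figure D2:**
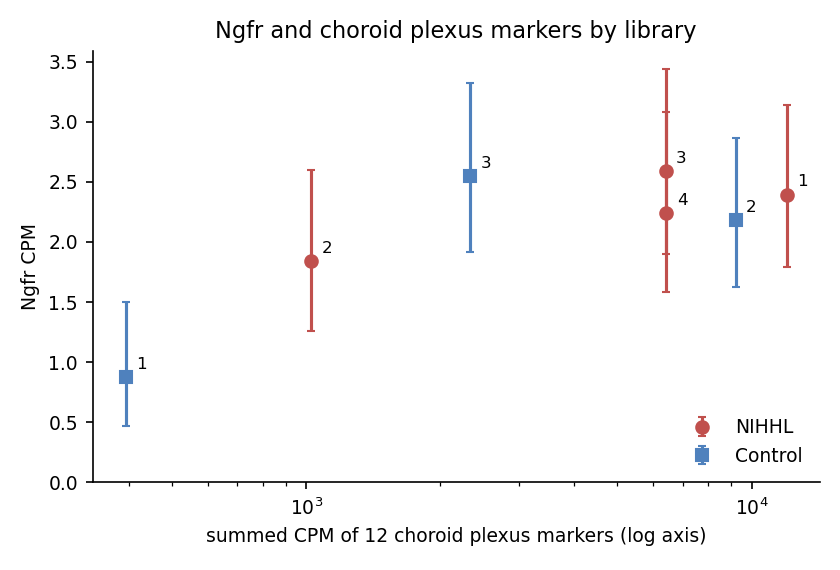
Ngfr CPM (vertical axis, bars are 95% exact Poisson intervals) against the summed CPM of 12 choroid plexus markers (horizontal axis, log scale) in each library, labelled by replicate number. Control replicate 1, at 393 CPM of choroid plexus markers, has the lowest Ngfr; in the other 6 libraries, from 1026 CPM up, Ngfr lies between 1.84 and 2.59.

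Read together, 0 of the 6 genes passed an adjusted p under 0.05 by edgeR, where 0% of all genes did, and 0 of 6 had an unadjusted p under 0.05, where 3.63% of all genes did, 2.32% higher and 1.31% lower in NIHHL. DESeq2 also called 0 of 6, against 0.0220% of all genes with an adjusted p, and had 0 of 6 at an unadjusted p under 0.05, against 2.46% of those genes. Limma-voom called 0 of 6 and had 0 of 6 at an unadjusted p under 0.05, against 3.70% of all genes. The mean was lower in NIHHL for Bdnf and higher for the other 5, and 49.9% of all genes had a log2 fold change above 0. The 6 log2 fold changes had a median of 0.07, against -0.00045 over all genes. The groups overlapped in 6 of 6 genes, and they did not overlap in 5.20% of all genes tested. Exact two-sided permutation of the group labels, with 35 possible labelings and log2 CPM as the value, gave p = 0.229 for Bdnf, 0.971 for Ntf3, 0.0857 for Ntrk2, 0.600 for Ntrk3, 0.457 for Ngfr and 0.486 for Sort1, and its smallest possible p is 0.0286. Adjusted p-values by edgeR were 0.996 for 5 of the genes and 1.00 for Ntf3.

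**Figure D3:**
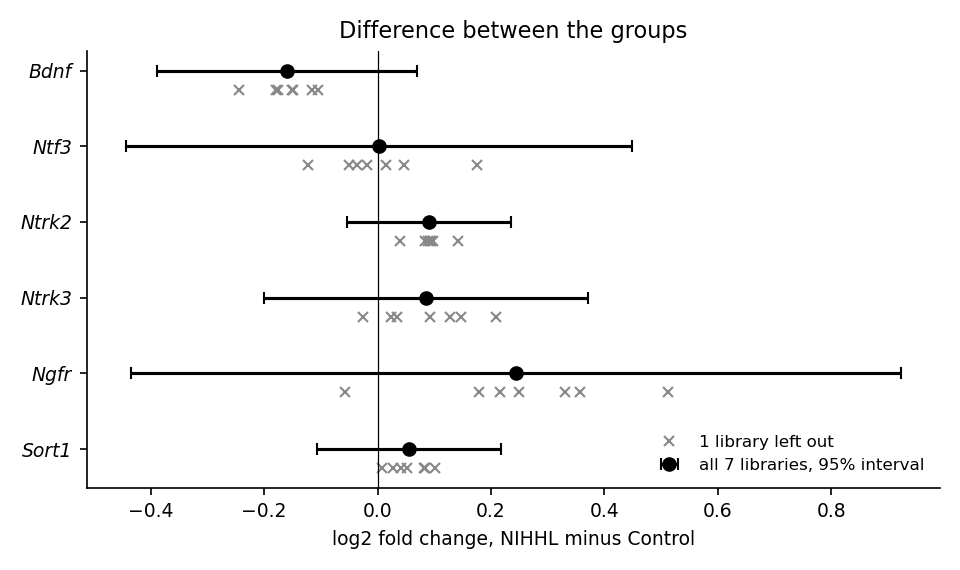
Log2 fold change of the 6 genes, NIHHL minus Control (horizontal axis), with all 7 libraries (black, bars are 95% intervals) and with each library left out in turn (grey crosses). Every interval spans 0; the crosses of Bdnf stay below 0, from -0.25 to -0.11, and those of Ngfr run from -0.058 to 0.51.

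Levels can be compared between genes only per length, here as CPM per kb of the union of annotated exons. Sort1 was highest, at 99.2 ± 7.25 in NIHHL and 95.5 ± 5.22 in Control, followed by Ntrk2 at 36.3 ± 0.475 in NIHHL and 34.1 ± 2.51 in Control (CPM per kb, SD). Ntrk3 followed at 7.55 ± 1.20 in NIHHL and 7.12 ± 1.02 in Control, and Bdnf at 4.29 ± 0.577 in NIHHL and 4.79 ± 0.110 in Control. Ntf3 was at 3.92 ± 1.03 in NIHHL and 3.88 ± 0.275 in Control, and Ngfr was lowest at 0.657 ± 0.0922 in NIHHL and 0.542 ± 0.255 in Control. This order held in 7 of 7 libraries for each pair of neighbours except Bdnf over Ntf3, which held in 5. With the longest coding transcript as length, an alternative chosen after seeing the data, the order was the same and Bdnf was above Ntf3 in 7 of 7. The sizes depended on the length used: Ntrk2 was then at 80.2 ± 1.05 in NIHHL and 75.3 ± 5.54 in Control, closer to Sort1 at 109.8 ± 8.03 in NIHHL and 105.7 ± 5.78 in Control (CPM per kb, SD). Ntrk3 was at 11.6 in NIHHL and 10.9 in Control, and Bdnf at 6.26 in NIHHL and 6.98 in Control on that length.

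**Figure D4:**
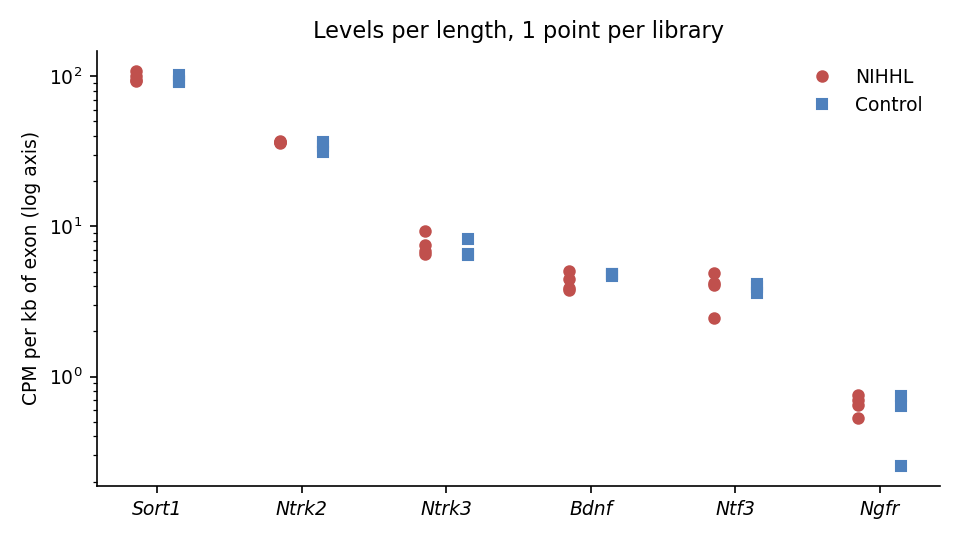
CPM per kb of exon (vertical axis, log scale) of the 6 genes in each NIHHL and Control library, ordered from the highest to the lowest gene. Sort1 and Ntrk2 stand apart from the rest, Bdnf and Ntf3 overlap, and Ngfr lies below 1 CPM per kb in every library.

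Ratios within a library set these genes against each other, first per kb of the exon union. Bdnf over Ntf3, both per kb, was 1.54, 0.906, 0.953 and 1.19 in NIHHL replicates 1 to 4 and 1.303, 1.18 and 1.23 in Control replicates 1 to 3. The ratio varied more among NIHHL libraries, on both sides of the Control values. Ntrk2 over Bdnf was 9.70, 8.24, 9.19 and 7.18 in NIHHL replicates 1 to 4 and 7.84, 6.50 and 7.07 in Control replicates 1 to 3. Replicates 1, 2 and 3 of NIHHL were above every Control library and replicate 4 lay within the Control range. The same replicates had Bdnf below every Control library, so this ratio is not a separate result. Ntrk2 over Ngfr, the balance of TrkB to p75 transcripts, was 53.0, 68.5, 47.6 and 55.7 in NIHHL replicates 1 to 4 and 144, 49.8 and 46.5 in Control replicates 1 to 3, where the high value belongs to Control replicate 1 with its 13 Ngfr counts. With the longest coding transcript as length, Ntrk2 over Ngfr was 117, 151, 105 and 123 in NIHHL replicates 1 to 4 and 317, 109.9 and 102 in Control replicates 1 to 3. On that length Ntrk2 over Bdnf was 14.7, 12.5, 13.9 and 10.9 in NIHHL and 11.9, 9.84 and 10.7 in Control. A change of length multiplies a ratio by the same factor in every library, so the comparison between groups is the same on both and the size is not. The ratios are descriptions and were not tested.

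Ntf5, which encodes neurotrophin-4, another ligand of TrkB, did not pass the low-count filter. NIHHL replicates 1 to 4 held 18, 2, 3 and 1 Ntf5 counts and Control replicates 1 to 3 held 0, 17 and 7. NIHHL replicate 1 and Control replicate 2 were the highest of their groups, and the groups overlapped. A count of 0 allows up to 3 counts, or 0.202 CPM, in Control replicate 1.

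Of 129 other genes of the pathway in 7 lists, 124 were tested, and 0 passed an adjusted p under 0.05 by edgeR. The mean was higher in NIHHL for 57 and lower for 67, and the median of their log2 fold changes was -0.010. An unadjusted p under 0.05 was found for 6, which is 4.84%, against 3.63% of all genes. The pathway genes named below had an adjusted p of 0.996 by edgeR, except Plat and Cpe at 1.00.

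Among the other ligands and receptors, 3 of 5 tested genes were higher and 2 lower in mean (median log2 fold change 0.011). Sorl1, a sorting receptor related to sortilin, was at 439, 412, 412 and 470.4 CPM in NIHHL replicates 1 to 4 and at 438, 343 and 361 CPM in Control replicates 1 to 3, with a log2 fold change of 0.19 (SE 0.09). Control replicate 1 lay among the NIHHL libraries, and the log2 fold change was 0.30 without it, 0.12 without Control replicate 2 and 0.080 without both Control replicate 2 and NIHHL replicate 4. Sorcs2, a p75 partner for precursors, had a log2 fold change of 0.06 (SE 0.08).

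Of 14 tested genes of precursor processing, transport and release, 8 were higher and 6 lower in mean (median 0.0081). Pcsk1, a convertase of the regulated secretory pathway, had the smallest p of all pathway genes. It was at 21.03, 22.1, 20.3 and 22.5 CPM in NIHHL replicates 1 to 4 and at 25.5, 26.1 and 32.3 CPM in Control replicates 1 to 3. The groups did not overlap, as for 5.20% of all genes tested. Its log2 fold change was -0.38 (SE 0.10). It was -0.26 without Control replicate 3 and -0.44 without Control replicate 1. Furin, which cleaves precursors in the trans-Golgi, had a log2 fold change of 0.07 (SE 0.11), Plat, the tissue plasminogen activator, 0.012 (SE 0.08), and Cpe, which also acts as a sorting receptor for Bdnf, 0.0043 (SE 0.06). Pcsk6, another convertase, had 0.15 (SE 0.09). Furin, Plat and Cpe were named after their values were seen.

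Of 19 Trk adaptors, 13 were higher and 6 lower (median 0.021), with the docking protein Gab1 at 48.7 ± 4.77 CPM in NIHHL and 41.2 ± 5.33 CPM in Control (log2 fold change 0.24, SE 0.11) and Shc1, which binds activated Trk receptors, at 0.15 (SE 0.12). The log2 fold change of Gab1 was 0.14 without Control replicate 2 and 0.085 without both Control replicate 2 and NIHHL replicate 4. Of 24 Ras-ERK and PI3K-Akt kinase cascade genes, 12 were higher and 12 lower (median -0.0012). Nras, a Ras protein, was at 57.2 ± 2.65 CPM in NIHHL and 50.8 ± 3.49 CPM in Control (log2 fold change 0.17, SE 0.07), and Rps6ka1, a ribosomal S6 kinase downstream of ERK, had 0.17 (SE 0.10). Of 19 p75 partners, 7 were higher and 12 lower (median -0.025). Mapk8, the stress kinase JNK1, was at 84.2 ± 4.79 CPM in NIHHL and 93.9 ± 4.90 CPM in Control (log2 fold change -0.16, SE 0.07), and Lingo1, a co-receptor of p75 for myelin inhibitors, had -0.13 (SE 0.07).

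Of 20 regulators of Bdnf transcription, 11 were higher and 9 lower (median 0.015). Creb1, which binds the cAMP response element, was at 51.2 ± 5.56 CPM in NIHHL and 46.03 ± 3.65 CPM in Control (log2 fold change 0.15, SE 0.10), and the histone deacetylase Hdac2 had -0.10 (SE 0.07). The log2 fold change of Creb1 was 0.093 without Control replicate 2 and 0.033 without both Control replicate 2 and NIHHL replicate 4. Of 23 genes that Bdnf and neuronal activity induce, 3 were higher and 20 lower in mean (median -0.19), the largest shift in median of the 7 lists. This median was -0.0025 without Control replicate 3, and the list was drawn up knowing that immediate early genes had a lower mean in NIHHL in these libraries, so its count is no independent support. Junb, a subunit of AP-1, was at 28.4, 36.9, 34.5 and 34.9 CPM in NIHHL replicates 1 to 4 and at 33.6, 45.02 and 44.6 CPM in Control replicates 1 to 3 (log2 fold change -0.29, SE 0.12). Egr2, a zinc finger factor, was at 0.782, 2.53, 1.82 and 2.83 CPM in NIHHL and at 2.16, 3.82 and 6.51 CPM in Control (log2 fold change -1.10, SE 0.45), and -0.63 without Control replicate 3. In both genes the lowest library was NIHHL replicate 1, which also had the lowest Bdnf, and the groups overlapped.

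**Figure D5:**
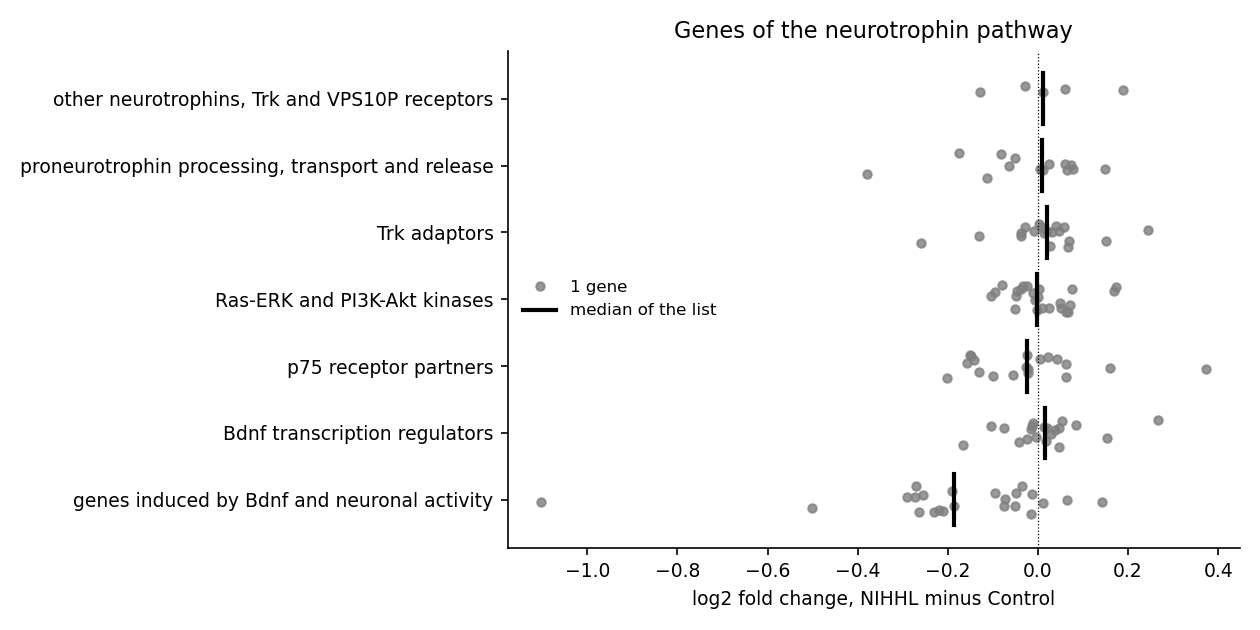
Log2 fold change, NIHHL minus Control (horizontal axis), of each tested gene in 7 pathway lists (grey points, spread vertically for legibility) with the median of each list (black bars). The medians of 6 lists lie between -0.025 and 0.021; that of genes induced by Bdnf and neuronal activity is -0.19.

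The genes whose log2 CPM over the 7 libraries was most like that of Bdnf, among 8387 genes with a mean log2 CPM of at least 4, were Arcn1, a coatomer subunit (Pearson r = 0.97), Elavl2, a neuronal RNA-binding protein (r = 0.97), and Tmem30a, a subunit of phospholipid flippases (r = 0.96). Elavl2 was at 58.9, 68.3, 61.1 and 79.4 CPM in NIHHL replicates 1 to 4 and at 77.2, 79.9 and 74.04 CPM in Control replicates 1 to 3, with the same 3 NIHHL libraries below every Control library. For Ntrk2 they were Mast2, a microtubule-associated kinase (r = 0.97), Igsf3, an immunoglobulin superfamily protein (r = 0.96), and Bcr, a regulator of small GTPases (r = 0.96). These likenesses are descriptions over the same 7 libraries, which differ in depth and in the length trend, and were picked from 8387 genes.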

How the data were processed

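RNA-seq of mouse hippocampus was analysed in 4 NIHHL and 3 Control libraries. Per the labels' protocols, libraries were made from oligo(dT)-enriched mRNA and sequenced on an Illumina instrument. The authors deposited expected counts per gene, not scaled to library size. Exactly whole numbers, with no tolerance, made up 90.7% of the deposited counts. Bowtie2 2.2.8, HISAT2, StringTie 1.3.1 and DESeq2 are named without a role in the submitters' processing notes; the sources used here do not give build, annotation or strand setting.

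Counts were rounded, filtered with edgeR's filterByExpr (minimum count 10), scaled by TMM and tested with edgeR's robust quasi-likelihood test over all genes, with a call at an adjusted p under 0.05. Log2 CPM carries a prior count of 2. SE is the absolute log2 fold change over the square root of F. DESeq2 and limma-voom, other scalings, no filter, left-out libraries, a replicate block, a choroid plexus covariate and a length correction were alternatives. Software was R 4.3.3, edgeR 4.0.16, limma 3.58.1 and DESeq2 1.42.0, tested on simulated data.

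Genes named were the 6 members, the 2 genes of each pathway list with the smallest p (none passed), the 3 genes most like Bdnf and like Ntrk2, and the most abundant marker of each cell type list given. Ntf5, Furin, Plat and Cpe fall outside this rule and were named with values seen. Some genes of the lists are not reported here. Members and lists were chosen with earlier results of these data known. Exon lengths are the union of GENCODE M21 exons, matched by Ensembl identifier.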

Additional observations from a re-analysis of the deposited data

How the results depend on the processing

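No alternative called any of the 6 genes. The count of all genes called was 0 by edgeR, 4 by DESeq2's Wald test (mt-Atp8, Hsd3b1, Akr1cl and Dnah6) and 1 with Control replicate 2 and NIHHL replicate 4 both left out (Gcat). The log2 fold change of Ntf3, 0.0025 with all libraries by edgeR, was -0.070 by limma-voom and -0.066 with the replicate block, which also leaves out NIHHL replicate 4. That of Ntrk3, otherwise 0.09, was -0.089 with Control replicate 2 and NIHHL replicate 4 both left out and -0.019 with the replicate block. Without NIHHL replicate 4 and with no block they were -0.036 for Ntf3 and -0.026 for Ntrk3. That of Sort1, otherwise 0.06, was -0.0073 with Control replicate 2 and NIHHL replicate 4 left out. Leaving out 1 library at a time, the log2 fold change ran from -0.12 to 0.18 for Ntf3, from -0.026 to 0.21 for Ntrk3 and from -0.058 to 0.51 for Ngfr. Bdnf, Ntrk2 and Sort1 kept their direction, from -0.25 to -0.11, from 0.04 to 0.14 and from 0.0077 to 0.10. The cause was not tested.

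No label says that same-numbered libraries are paired. Across 8391 genes, deviations of same-numbered libraries from their group means correlated at -0.52, -0.33 and -0.04. Those of Control replicate 2 and NIHHL replicate 1 correlated at 0.47. The libraries also differ in the length trend and in choroid plexus markers, so these correlations cannot decide whether a pairing existed. With the number as a block over replicates 1 to 3, 0 genes were called and Bdnf had a log2 fold change of -0.25 (unadjusted p = 0.0403 by edgeR). Leaving out NIHHL replicate 4 with no block gave the same -0.25 (unadjusted p = 0.0213 by edgeR). Depth limits Ngfr, with 13 to 54 counts per library. Ntf5 is below what could be tested.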

Other observations

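Ntf5 had 18 counts in NIHHL replicate 1 and 17 in Control replicate 2, and at most 7 in any other library. These 2 libraries had the highest summed choroid plexus markers of their groups, 11996 CPM in NIHHL replicate 1 and 9213 CPM in Control replicate 2. Other libraries did not follow that order. NIHHL replicates 3 and 4, at 6411 and 6437 CPM of these markers, held 3 and 1 Ntf5 counts. Control replicate 3, at 2332 CPM, held 7. Whether the counts come from that tissue was not tested. Ntrk2 had a coefficient of variation of 1.31% over the NIHHL libraries and 7.36% over the Control libraries, while Bdnf had 13.4% in NIHHL and 2.29% in Control, so the ligand and its receptor differed in which group was more even. With 4 and 3 libraries the difference in spread was not tested.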
